A study of Homo sapiens with 8 samples.

Results

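The epithelial keratins described here are 9 genes, KRT7, KRT8, KRT15, KRT17, KRT18, KRT19, KRT23, KRT80 and KRT81, chosen by symbol and found through the transcript accession of each probe, of 19062 genes that could be named on the arrays. Keratins are the intermediate filament proteins of epithelial cells. A type I keratin pairs with a type II keratin, the pairs assemble into filaments, and the filaments are tied to desmosomes and hemidesmosomes, so that a sheet of cells resists mechanical stress. Which keratins a cell makes depends on the type of epithelium: KRT8 and KRT18 with KRT7 and KRT19 are typical of simple epithelia such as the lining of the airways and glands, and pathologists use KRT7, KRT8, KRT18 and KRT19 to recognise carcinomas of such epithelia.

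The cells were A549, an established human lung carcinoma line, exposed either to EEDS, an ethanol extract of the seeds of Descurainia sophia, or to helveticoside, a cardiac glycoside present in that extract. Each agent had a series of 4 arrays. The EEDS series held a vehicle control and 1.25, 5 and 20 μg/mL EEDS, and the helveticoside series held its own vehicle control and 3.75, 15 and 60 nM helveticoside. Every array was a single hybridisation of RNA pooled from 3 cultures, so no dose had a replicate and no single dose could be tested. All 8 arrays carried the same cell line, and nothing but the agent and its dose is recorded as differing between them. The exposure is given as 48 h in the sample labels and as 24 h in the methods of the study. The question was which keratin transcripts changed with the dose of the extract and of the pure glycoside. Because each agent was run in a series of its own, agent and series cannot be told apart.

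Values are log2 intensities after quantile normalization, for 1 probe per gene. A probe was taken as measured where the scanner software marked it well above background. This held for 63.4% to 64.9% of the probes on an EEDS array and 54.5% to 59.5% on a helveticoside array. No spot was saturated. Repeated spots of a probe had a median SD on the log2 scale of 0.069 to 0.070 on the EEDS arrays and 0.082 to 0.085 on the helveticoside arrays. These measures thus differed between the series. The only pair of arrays without a drug were the vehicle controls, and over 12395 genes the SD of their log2 difference was 0.498. Of the defining markers of epithelium, EPCAM, CDH1, KRT8 and KRT18 were all well above background on all 8 arrays. Of 12 markers of fibroblasts, endothelium and leukocytes, COL1A1, CDH5, PTPRC and CD14 were well above background on all 8 arrays. None of the 12 passed the trend test with dose (limma, 0 at an adjusted p under 0.05 and 1 at an unadjusted p under 0.05 for each agent), the CD14 slope being -0.69 ± 0.29 (SE) log2 per dose step with EEDS and -0.86 ± 0.29 with helveticoside. All 8 arrays were of A549 cells. In RNA from whole cultures, fewer cells with a transcript and less of it per cell cannot be told apart.

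Among the 9 keratins, KRT19, KRT18 and KRT8 passed the trend test as falling with EEDS, and KRT19 and KRT18 did so with helveticoside. The KRT8 slope with helveticoside was also negative, -0.27, but missed the threshold (limma, adjusted p = 0.0604). When each of the 8 arrays was left out in turn, no such call held in more than 2 fits. With only the 4 arrays of a series, no gene was called. KRT80 was over 2-fold higher at the 2 upper doses of each agent and KRT7 about 1.5-fold higher at the top doses, but neither passed the test for a trend as processed here. The largest KRT81 log2 ratio after quantile normalization was 0.13, at 60 nM helveticoside. With 75th percentile scaling KRT81 read -0.40 at 20 μg/mL EEDS and 0.26 at 60 nM helveticoside. KRT15 was higher at the 2 lower doses of each agent than at the top dose. KRT17 and KRT23 were mostly not well above background.

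**Figure D1:**
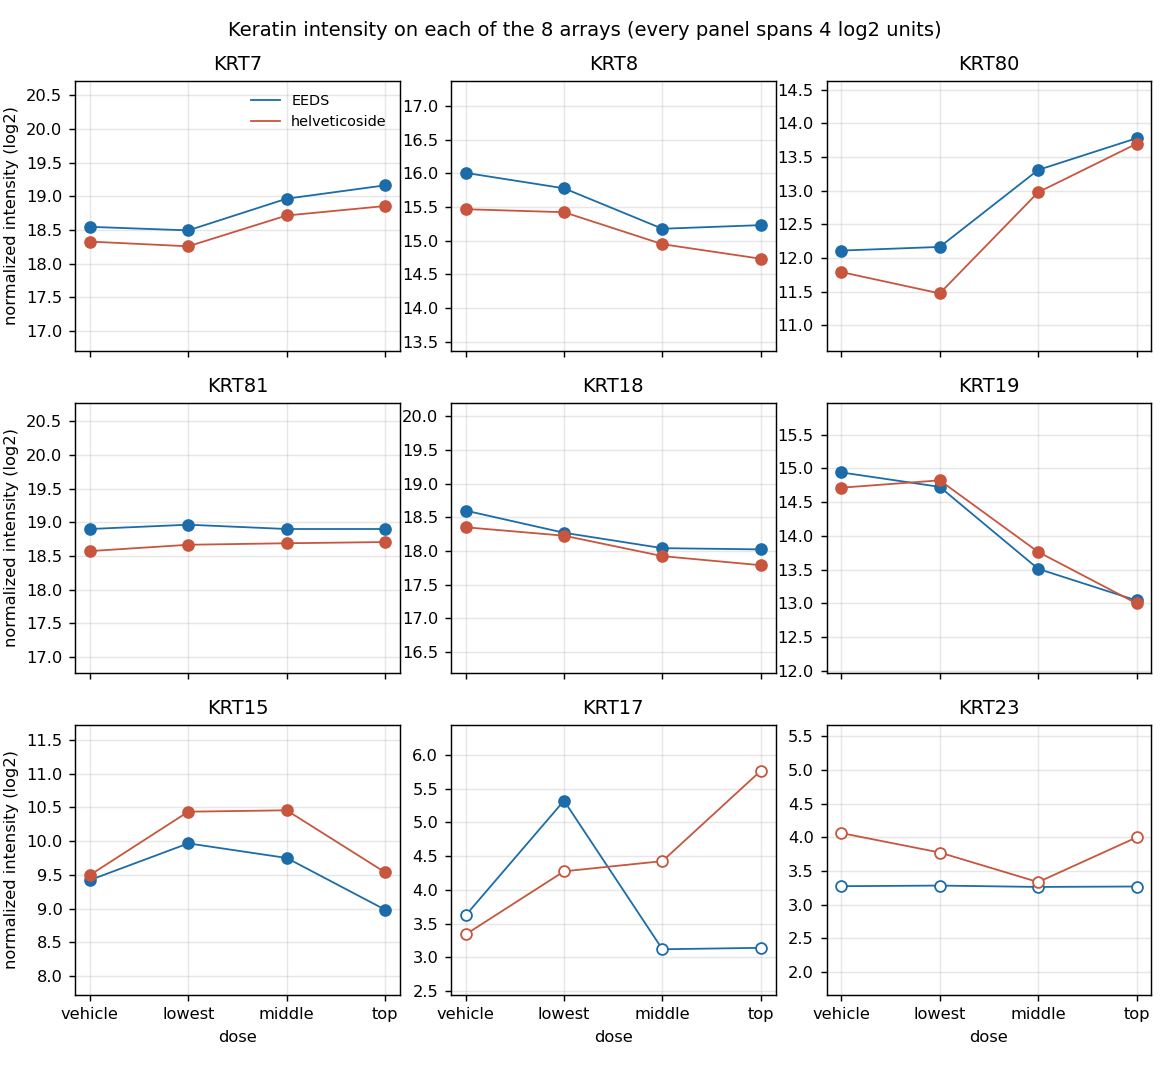
Quantile-normalized log2 intensity (vertical axis) of each keratin on the 4 arrays of the EEDS series (blue) and of the helveticoside series (red), by dose (horizontal axis: vehicle, lowest, middle and top dose). Each point is 1 array, filled where the probe was well above background and open where it was not. KRT19 drops and KRT80 climbs between the lowest and the top dose in both series, while KRT81 is nearly flat under this normalization.

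KRT8 and KRT18 are the obligate type II and type I pair of simple epithelium and the first keratins made in the embryo. The KRT8 log2 intensity was 16.01 in the EEDS vehicle control, 15.78 at 1.25 μg/mL, 15.18 at 5 μg/mL and 15.23 at 20 μg/mL. In the helveticoside series KRT8 was 15.47 in the vehicle control, 15.42 at 3.75 nM, 14.95 at 15 nM and 14.73 at 60 nM. In both series the arrays of the 2 upper doses lay below the control and the lowest dose. At the top doses KRT8 was 1.71-fold lower with EEDS and 1.66-fold lower with helveticoside, on a log2 scale -0.78 and -0.73. The difference between the vehicle controls of the series was -0.54 (helveticoside minus EEDS), so the EEDS top dose set against the other series' control gave -0.24, and the helveticoside top dose set against the EEDS control gave -1.27.

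The KRT18 log2 intensity was 18.60, 18.27, 18.04 and 18.02 from the EEDS vehicle control to 20 μg/mL. It was 18.35, 18.23, 17.92 and 17.79 from the helveticoside vehicle control to 60 nM. Each KRT18 array read lower than the one at the dose before it, in both series. The top doses were 1.49-fold lower with EEDS and 1.48-fold lower with helveticoside, on a log2 scale -0.58 and -0.56. With 75th percentile scaling these ratios were -0.96 and -0.51. Against the other series' control they were -0.33 and -0.81.

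KRT19, the smallest keratin and a type I partner found in simple and glandular epithelium, had the largest decrease among the 9. Its log2 intensity was 14.94 in the EEDS vehicle control, 14.73 at 1.25 μg/mL, 13.51 at 5 μg/mL and 13.04 at 20 μg/mL. In the helveticoside series it was 14.71 in the vehicle control, 14.82 at 3.75 nM, 13.76 at 15 nM and 13.00 at 60 nM. The lowest dose read close to the control in both series and the drop came at the middle and top doses. KRT19 was 2.70-fold lower at 5 μg/mL EEDS, 3.73-fold lower at 20 μg/mL EEDS, 1.94-fold lower at 15 nM helveticoside and 3.29-fold lower at 60 nM helveticoside.

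KRT7, a type II keratin of simple and glandular epithelium that is a common marker of lung adenocarcinoma, was among the 49 brightest of 34127 probes on every array. Its log2 intensity was 18.55, 18.50, 18.97 and 19.16 from the EEDS vehicle control to 20 μg/mL. It was 18.33, 18.26, 18.72 and 18.86 from the helveticoside vehicle control to 60 nM. The 2 upper doses lay above the control and the lowest dose in both series. At the top doses KRT7 was 1.53-fold higher with EEDS and 1.44-fold higher with helveticoside. When arrays were divided by their 75th percentile in place of quantile normalization, the EEDS value was 0.08 in place of 0.62 on the log2 scale, and the helveticoside value was 0.58 in place of 0.53.

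KRT80, a type II keratin found in many epithelia and near desmosomes, had the largest increase among the members well above background. Its log2 intensity was 12.11 in the EEDS vehicle control, 12.17 at 1.25 μg/mL, 13.31 at 5 μg/mL and 13.78 at 20 μg/mL. In the helveticoside series it was 11.79 in the vehicle control, 11.48 at 3.75 nM, 12.98 at 15 nM and 13.70 at 60 nM. At the lowest doses KRT80 read 0.05 with EEDS and -0.32 with helveticoside against the controls, and the 2 upper doses stood apart. KRT80 was 2.29-fold and 3.18-fold higher at 5 and 20 μg/mL EEDS, and 2.27-fold and 3.74-fold higher at 15 and 60 nM helveticoside.

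KRT81 is a type II keratin of the hair cortex. Its log2 intensity was 18.90, 18.97, 18.90 and 18.90 from the EEDS vehicle control to 20 μg/mL, and 18.57, 18.67, 18.69 and 18.71 from the helveticoside vehicle control to 60 nM. No array stood out in either series. The KRT81 probe ranked between 6 and 22 by brightness among 34127 probes, and it held rank 8 on the arrays of the EEDS control, 5 μg/mL and 20 μg/mL. Quantile normalization gives probes of equal rank nearly the same value, so it sets these 3 values at one level. Scaled to the 75th percentile, the ratio at 20 μg/mL EEDS was -0.40 in place of -0.00, and at 60 nM helveticoside 0.26 in place of 0.13. The direction for KRT81 with EEDS therefore depends on the scaling.

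KRT15 and KRT17 are type I keratins of stratified epithelium: KRT15 marks basal cells, and KRT17 is made in basal cells of complex epithelia, in skin appendages and after injury. The KRT15 log2 intensity was 9.42, 9.97, 9.75 and 8.98 from the EEDS vehicle control to 20 μg/mL. It was 9.50, 10.44, 10.46 and 9.54 from the helveticoside vehicle control to 60 nM. The lowest and middle doses were above the control in both series, and the top dose was below it with EEDS and level with it with helveticoside. The greatest KRT15 ratio was 0.96 at 15 nM helveticoside, under 2-fold. A straight line in the dose step does not describe such a shape, and the slope of KRT15 changed sign when the EEDS top dose was left out.

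KRT17 was well above background on 1 array, that of 1.25 μg/mL EEDS, where its log2 intensity was 5.32 against 3.62 in the control. Against the lowest signal well above background on the control array, that made it at least 1.70-fold higher. On the other 7 arrays KRT17 lay between 3.12 and 5.77 and was not well above background, so no fold is given there. KRT23, a type I keratin found in gut and other simple epithelia, lay between 3.26 and 4.06 and was not well above background on any array. The second probe named for KRT23 was well above background only on the EEDS vehicle control, at 5.66.

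Counted with the fold that the study used for changed genes, by one rule for the keratins and for all genes (a gene below background on 1 array counts by its bound and one below on both does not count), no keratin of the 9 was over 2-fold either way at 1.25 μg/mL EEDS, where 5.61% of all genes were, or at 3.75 nM helveticoside, where 2.36% were. At 5 μg/mL EEDS 1 keratin was over 2-fold higher (KRT80) beside 5.94% of all genes, and 1 was over 2-fold lower (KRT19) beside 6.62%. At 20 μg/mL EEDS the same 2 keratins passed, beside 11.4% of all genes higher and 12.4% lower. At 15 nM helveticoside KRT80 alone passed, beside 4.24% of all genes higher and 5.42% lower. At 60 nM helveticoside KRT80 and KRT19 passed, beside 7.9% of all genes higher and 9.75% lower. With 9 members, 1 gene is 11.1% of the list, so the counts at the top doses are near the background share. Over the 7 keratins with a ratio, the median log2 ratio at the top dose was -0.44 with EEDS and 0.04 with helveticoside, beside 0.01 and 0.03 over all genes with a ratio.

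The trend was tested with limma, as a slope per dose step (vehicle 0, then 1, 2 and 3) in each series. The 4 residual degrees of freedom come from the scatter of the 8 arrays about the 2 lines, not from replicates, and p-values were adjusted over all genes with the Benjamini-Hochberg method. With EEDS 3 of 9 keratins fell and 0 rose, beside 7.85% of all genes falling and 7.25% rising. With helveticoside 2 of 9 fell and 0 rose, beside 5.8% falling and 5.45% rising. The members were chosen with earlier results of these data known, and 7 of the 9 were well above background on all 8 arrays. Of all 19062 genes, 11495 were. The shares are therefore set side by side as a description and not as a test of enrichment. At an unadjusted p under 0.05, KRT7, KRT8, KRT18, KRT19 and KRT80 passed for each agent, beside 33.4% of all genes with EEDS and 29.8% with helveticoside.

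The KRT19 slope was -0.69 ± 0.13 (SE) log2 per step with EEDS (limma, adjusted p = 0.0302) and -0.62 ± 0.13 with helveticoside (limma, adjusted p = 0.0441). The KRT18 slope was -0.20 ± 0.038 with EEDS (limma, adjusted p = 0.0311) and -0.20 ± 0.038 with helveticoside (limma, adjusted p = 0.0353). The KRT8 slope was -0.29 ± 0.067 with EEDS (limma, adjusted p = 0.0424) and -0.27 ± 0.067 with helveticoside, where it missed the threshold (limma, adjusted p = 0.0604). The KRT80 slope was positive, 0.61 ± 0.17 with EEDS (limma, adjusted p = 0.0703) and 0.72 ± 0.17 with helveticoside (limma, adjusted p = 0.0566), and did not pass. The KRT7 slope was 0.23 ± 0.061 with EEDS (limma, adjusted p = 0.0596) and 0.20 ± 0.061 with helveticoside (limma, adjusted p = 0.0926). KRT15, KRT17, KRT23 and KRT81 had adjusted p-values of 0.200 or more in limma.

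These calls lie close to the threshold. When each of the 8 arrays was left out in turn, the number of falling or rising keratins was 0 to 2 with EEDS and 0 to 1 with helveticoside, and KRT19 kept its EEDS call in 2 of the 8 fits (without the helveticoside control or the 3.75 nM array) and its helveticoside call in 0. KRT18 and KRT8 kept their EEDS calls in 1 fit each (without 5 μg/mL EEDS), and KRT18 kept its helveticoside call in 2 (without the EEDS control or 20 μg/mL EEDS). With only genes well above background on all 8 arrays, the model was refitted to fewer genes, which changed both the estimated spread and the adjustment. There KRT7, KRT8, KRT18, KRT19 and KRT80 passed for both agents, beside 31.3% of those genes with EEDS and 24.1% with helveticoside. KRT80 passed for each agent in 6 of the 10 alternatives that changed the processing or the model. These were the signal as scanned, normexp, 75th percentile, the deposited processed table, the logarithm of the dose and the genes well above background throughout. With 1 array left out, KRT80 passed with EEDS in 2 of the 8 fits (without the helveticoside control or the 3.75 nM array). With helveticoside it passed in 0.

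**Figure D2:**
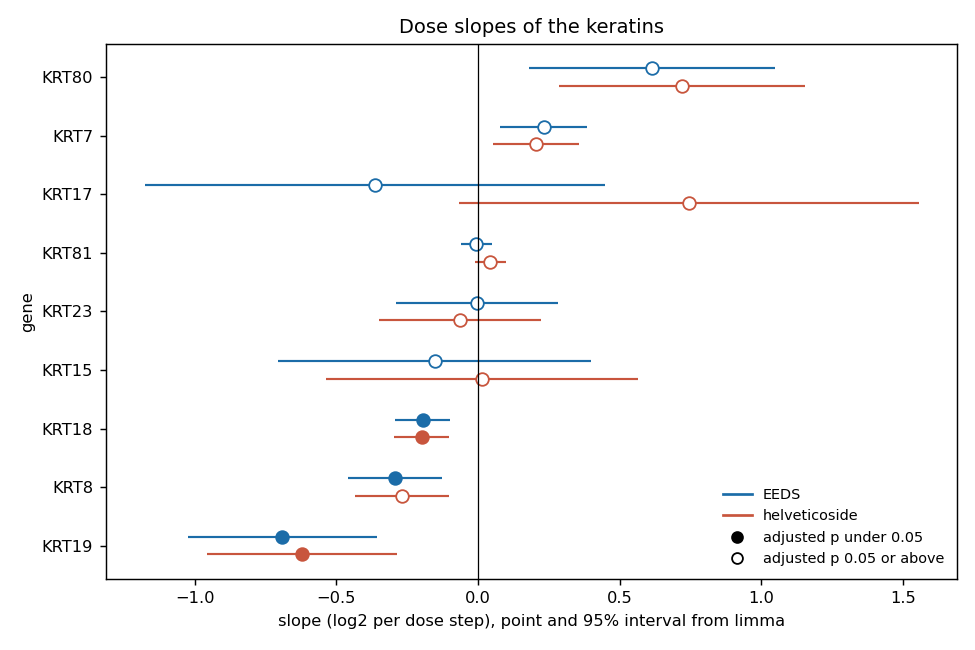
Slope per dose step (horizontal axis, log2 intensity) of each keratin (vertical axis) with EEDS (blue) and helveticoside (red). Points are limma estimates, bars their 95% intervals, filled points passed an adjusted p of 0.05. For each keratin the 2 intervals overlap, and those of KRT80 and KRT7 lie above 0 while those of KRT18, KRT8 and KRT19 lie below it.

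The slopes were then compared between the extract and the glycoside in the same fit. The doses are in different units, so a step is not a matched dose and the comparison is of the 2 dilution series. No keratin differed (limma, 0 of 9 at an adjusted p under 0.05 and 0 of 9 at an unadjusted p under 0.05), beside 0% of all genes, of which 526 had an unadjusted p under 0.05. The difference of the KRT19 slopes, EEDS minus helveticoside, was -0.07 with a 95% interval from -0.54 to 0.40. That of KRT18 was 0.00, from -0.13 to 0.14, and that of KRT8 was -0.02, from -0.26 to 0.21. For KRT80 it was -0.11, from -0.72 to 0.51. The KRT80 interval reaches differences about as large as the KRT80 slopes, and the test does not show that the agents act alike. The widest interval was that of KRT17, from -2.26 to 0.04, for a probe that was well above background on a single array.

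The vehicle controls were compared as single arrays. Of the 7 measured keratins, KRT15 was 0.07 higher in the helveticoside control than in the EEDS control, and the other 6 were lower by log2 differences of -0.22 (KRT7) to -0.54 (KRT8). The KRT8 difference was larger than the 0.498 SD of all genes between these arrays. In the deposited processed table the same differences were larger for KRT80 (-0.94), KRT8 (-0.89), KRT19 (-0.74) and KRT15 (-0.51, with the sign turned). The 0.498 SD is of the quantile-normalized values, and no SD over all genes was computed for the deposited table. With the 75th percentile scaling KRT7 and KRT18 also turned sign, at 0.09 and 0.03.

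Several keratins have near-identical gene copies or pseudogenes, and an array probe may bind the copy too. These further probes were named after their values were seen. The second KRT8 probe read -0.79 at 20 μg/mL EEDS and -0.83 at 60 nM helveticoside on the log2 scale, beside -0.78 and -0.73 for the probe used. The second KRT18 probe read -1.16 and -0.83, and the probe of the pseudogene KRT18P55 read -1.32 and -0.85, beside -0.58 and -0.56 for the brighter KRT18 probe. All 3 probes of the KRT18 family were lower at every dose of both agents, and the EEDS values differed between probes by more than those of helveticoside. The probe of the pseudogene KRT8P41 read -0.87 and -0.95 at 1.25 and 5 μg/mL EEDS, was not well above background at 20 μg/mL (4.64 against 5.96 in the control) and read 0.04 at 60 nM helveticoside. It was lower with EEDS, as the KRT8 probes were, and level with the control at the top dose of helveticoside, as they were not. The KRT8P41 probe was well above background on 6 of the 8 arrays, and read 4.64 to 6.06 at the controls and top doses. This contrast between the agents therefore rests on single arrays at a low level.

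KRT83 is a hair keratin whose transcript is nearly the same as that of KRT81. Its brighter probe had log2 intensities of 16.25, 16.75, 16.95 and 16.97 in the EEDS series and 15.79, 15.80, 16.35 and 16.34 in the helveticoside series, from vehicle to top dose. Both KRT83 probes were higher at the top doses, the brighter by 0.72 with EEDS and 0.55 with helveticoside and the dimmer by 0.60 with each, while the KRT81 probe read -0.00 and 0.13. The slope of KRT83 did not pass (limma, adjusted p = 0.0782 with EEDS and 0.105 with helveticoside). How far the KRT83 probes bind the KRT81 transcript was not tested.

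**Figure D3:**
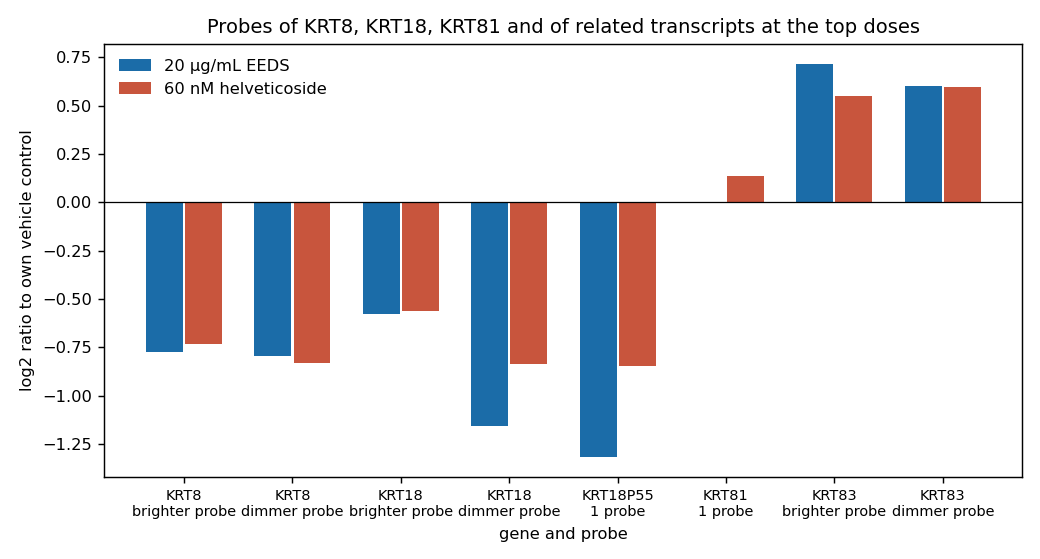
Log2 ratio to the own vehicle control (vertical axis) at 20 μg/mL EEDS (blue) and 60 nM helveticoside (red) for the probes of KRT8, KRT18, KRT81 and of KRT18P55 and KRT83 that were well above background on all 8 arrays (horizontal axis). Bars are single-array ratios with no error. The KRT8 and KRT18 family bars all point down, from -0.56 to -1.32, and the KRT83 bars point up beside a KRT81 probe near 0.

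Beyond the 9 members, 44 of 46 other keratins were on the arrays and 9 of these were well above background on all 8. With EEDS 2 of the 44 rose (KRT77 and KRT10) and 2 fell (KRT4 and KRT222). With helveticoside 1 rose (KRT10) and 2 fell (KRT4 and KRT222). KRT77 and KRT222 were not well above background on all 8 arrays, so their slopes include values that did not count as measured. Over all genes, 7.25% rose and 7.85% fell with EEDS, and 5.45% rose and 5.8% fell with helveticoside. These shares also stand beside the counts of the lists below, and no list was tested as a set. KRT10, a type I keratin of differentiated skin layers, went from a log2 intensity of 15.36 in the EEDS control to 15.91, 16.59 and 16.99, and from 15.22 in the helveticoside control to 15.52, 16.26 and 16.93. Every step of KRT10 was upward in both series, with slopes of 0.56 ± 0.053 (limma, adjusted p = 0.0131) and 0.59 ± 0.053 (limma, adjusted p = 0.0165). KRT4, a type II keratin of moist stratified linings, went from 12.23 to 11.50, 10.26 and 9.85 with EEDS, and from 11.80 to 11.79, 10.46 and 9.84 with helveticoside. Its slope was -0.84 ± 0.13 with EEDS (limma, adjusted p = 0.0196) and -0.72 ± 0.13 with helveticoside (limma, adjusted p = 0.0306).

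Of 19 genes for proteins of the sites that anchor keratin filaments, 2 rose (PPL and CD151) and 2 fell (DSP and JUP) with EEDS. With helveticoside 3 rose (PPL, DSC2 and CD151) and 0 fell. DSC2 was not well above background on all 8 arrays. PPL encodes periplakin, which links keratins to desmosomes, and its ratio at the top dose was 1.84 with EEDS and 1.41 with helveticoside. CD151, a tetraspanin of hemidesmosomes, read 0.73 and 0.74. DSP encodes desmoplakin, the main link from keratin to the desmosome, and read -1.01 and -0.82. JUP, the desmosome protein plakoglobin, read -2.01 and -1.11. With helveticoside DSP and JUP did not pass (limma, adjusted p = 0.0546 and 0.0676).

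Among 25 genes whose proteins bind, modify or control keratins, 4 rose (CSNK1A1, TFAP2C, KLF4 and ESRP1) and 4 fell (TCHP, TRADD, TFAP2A and EHF) with EEDS. With helveticoside 4 rose (PRKCE, TFAP2C, KLF4 and ESRP1) and 2 fell (TCHP and TRADD). KLF4, ESRP1 and EHF were not well above background on all 8 arrays. TCHP, whose product trichoplein binds KRT8 and KRT18 filaments, fell with both agents, with top-dose ratios of -1.65 and -1.95. TRADD, a death receptor adaptor that binds KRT18, also fell with both, at -2.54 and -2.18. TFAP2C, a transcription factor active in many epithelia, rose with both, at 1.59 and 2.10. TFAP2A, of the same family, read -1.08 and -1.04 and passed with EEDS, while the helveticoside slope had an adjusted p of 0.0663 in limma. CSNK1A1, a casein kinase found on keratin filaments, read 1.10 and 0.58 and passed with EEDS. PRKCE, a protein kinase C that phosphorylates KRT8, read 1.47 and 2.22 and passed with helveticoside. The difference of the slopes between the agents did not pass for any of the genes named here (limma, adjusted p = 1).

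Of 14 other intermediate filament genes, 1 rose (NEFM) and 1 fell (SYNM) with EEDS and 1 fell (NEFL) with helveticoside. Neither NEFM nor NEFL was well above background on all 8 arrays. Vimentin and the lamins did not pass. SYNM, which encodes synemin, read -1.82 at 20 μg/mL EEDS and -1.05 at 60 nM helveticoside.

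CDH1 encodes E-cadherin, the adhesion protein of epithelial junctions. Its log2 intensity was 9.91, 9.52, 7.60 and 7.21 in the EEDS series and 9.69, 9.85, 8.17 and 6.98 in the helveticoside series, from vehicle to top dose. As with KRT19, the lowest dose lay near the control and the 2 upper doses far below it. The CDH1 slope was -1.003 ± 0.21 with EEDS (limma, adjusted p = 0.0363) and -0.98 ± 0.21 with helveticoside (limma, adjusted p = 0.0452). EPCAM, an epithelial adhesion protein, read 0.05 and -0.26 at the top doses and did not pass the trend test. The summed level of the leukocyte markers, made up mostly of CD14, was 11.55 and 11.73 on the log2 scale at the EEDS control and lowest dose and 9.64 and 10.16 at the upper doses, and 11.41, 11.85, 10.24 and 9.57 in the helveticoside series. Of these markers CD3E was not well above background on any array. All cultures are recorded as the A549 line, so the sum is a transcript level in that line and not a measure of leukocyte number. How the marker levels relate to the keratin values was not tested.

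Over the 8 arrays, the gene outside the members whose log2 intensity followed KRT19 most closely was CDH1 (Pearson r = 0.997), followed by TMEM143 (r = 0.996), among 11488 genes well above background on all 8. For KRT80 these were MED10 (r = 0.998) and MBD1 (r = 0.994). For KRT7 they were IRX2 (r = 0.991) and PTK2 (r = 0.988), and for KRT18 CYBC1 and ASL (both r = 0.99). KRT8 was followed most closely by PTOV1 (r = 0.991). TMEM191A had an r of 0.960 with KRT15, and 21 genes had an r over 0.9 with KRT15, against 1065 genes for KRT19. The 8 points of each correlation share the dose steps and the 2 series, so high values are common and they are given as a description.

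**Figure D4:**
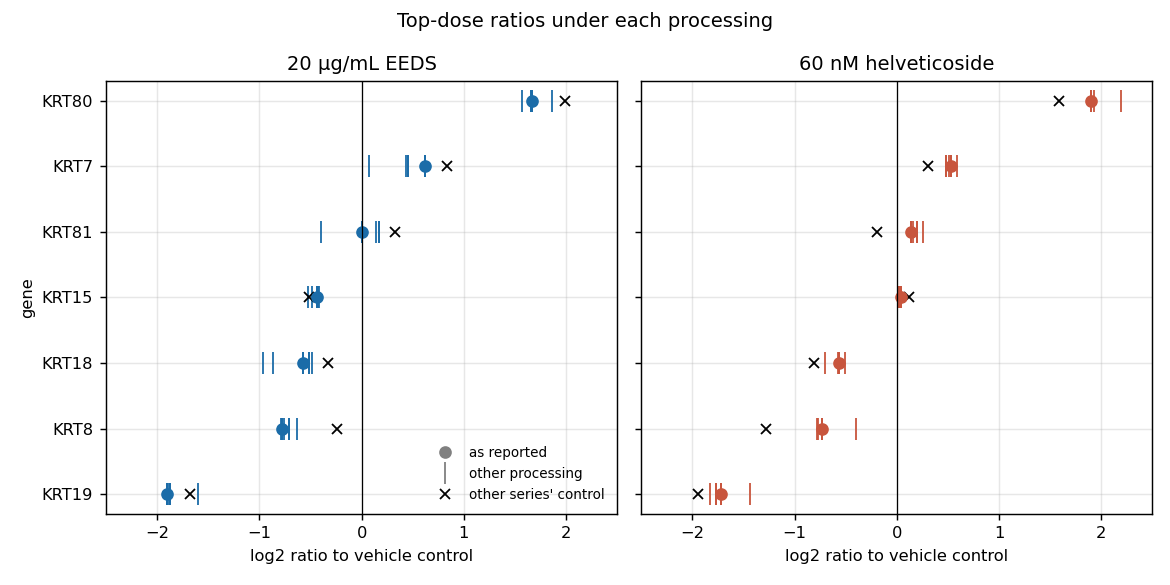
Log2 ratio to the vehicle control (horizontal axis) at 20 μg/mL EEDS (left) and 60 nM helveticoside (right) for the 7 measured keratins (vertical axis), as reported (circles), under 7 other ways of processing (ticks) and against the vehicle control of the other series (crosses). KRT80 lies above 1.5 and KRT19 below -1.4 throughout, and KRT81 falls on both sides of 0.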

How the data were processed

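RNA of A549 cells was hybridised to 1-colour Agilent whole human genome arrays, 8 in all, from samples with an RNA integrity number above 7. The authors deposited Feature Extraction scanner intensity values, together with a processed intensity table. According to the methods, spots over 1.4-fold of the local background were kept, quantile-normalized and averaged over duplicates.

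Here the processed signal intensity of the deposited scanner files was taken, with outlier spots removed and spots of a probe averaged. Values were quantile-normalized over the 8 arrays with limma 3.58.1 in R 4.3.3. Values not over 1.4-fold of background were raised to the lowest detected signal where they lay below it. Of 34127 probes, 24827 matched 19062 gene names of GRCh38.p14 by transcript accession, and the brightest probe stood for a gene. After a filter on low values 19052 genes were kept for the EEDS series and 19062 for the helveticoside series. A ratio was given only where both arrays were well above background, and otherwise a bound or nothing. Slopes were fitted with lmFit and eBayes (trend and robust), checked on simulated data. The number of arrays limits the precision, and the files used here carry no slide or scan batch. The members and gene lists were chosen with earlier results of these data known. From each list the text names genes called for at least 1 agent and well above background on all 8 arrays, at most 4 per direction, and the 2 genes most correlated with each member, some of which are not reported here. KRT83, KRT18P55 and KRT8P41 were added after their values were seen, and so were genes named beside a count of called genes.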

Additional observations from a re-analysis of the deposited data

How the results depend on the processing

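Directions of the called or 2-fold keratin results did not reverse under any alternative run. KRT80 stayed over 2-fold higher and KRT19 over 2-fold lower at both top doses in the 8 alternatives run on the ratios. Against the other series' control, 2 keratins (KRT8 and KRT19) in place of 1 were over 2-fold lower at 60 nM helveticoside. The count of keratins with a trend moved more. With EEDS it was 3, and it became 5 with only genes well above background on all 8 arrays, 1 with eBayes without trend and robust estimation, and 0 with only the 4 arrays of the series, where no gene was called. With helveticoside it was 2, and it became 4 with the median signal as scanned, 4 with normexp, 4 with the deposited processed table, 5 with only genes well above background on all 8 arrays, 1 with the plain eBayes and 0 with only the 4 arrays. Leaving out 1 array gave 0 to 2 with EEDS and 0 to 1 with helveticoside. The EEDS count was 0 without the EEDS control, 1.25 μg/mL, 20 μg/mL, 15 nM or 60 nM array. The helveticoside count was 1 without the EEDS control or the 20 μg/mL array and 0 without each of the other 6. Over all genes, 2875 were called with EEDS and 2144 with helveticoside. The EEDS number was 4593 with the deposited table and 0 to 2618 with 1 array left out, and the helveticoside number was 0 to 1493 with 1 array left out. The slope difference stayed at 0 keratins in every fit. With 75th percentile scaling the ratio of the median gene was -0.36 at 20 μg/mL EEDS and -0.18 at 60 nM helveticoside (log2), in place of 0.02 and -0.0041. The mean of both KRT23 probes passed for EEDS (limma, adjusted p = 0.0426), although neither probe was well above background at any EEDS dose. The cause of these changes was not tested. No paired analysis was possible because each dose had 1 array and no replicate numbers. Single probes chosen after seeing the data are given with the keratins above.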
